A study of Mus musculus with 4 samples.

Results

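Potassium, calcium and TRP (transient receptor potential) channel genes were examined in primary aortic smooth muscle cells of Atg7F/F SM22α-Cre+ mice and of Atg7+/+ SM22α-Cre+ mice, labelled as strain C57LB/6. Cells of both genotypes carry Cre recombinase driven by the smooth muscle promoter SM22α, so they differ in the Atg7 alleles, which are floxed in Atg7F/F. Atg7 is the E1-like enzyme that autophagosome formation depends on. The cells were grown with 10% serum to between passages 4 and 10, and the labels give no age of the animals. Each genotype had 2 biological replicates, and each Atg7F/F extract shared 2 Agilent arrays, 1 for each dye orientation, with the like-numbered Atg7+/+ extract. The labels do not say whether the replicates came from separate animals, so the p-values need not cover a spread between animals. They rest on the spread between the 2 within-pair ratios, drawn towards the spread over all genes, and not on that between extracts of a genotype. The genes were chosen by name, as every non-control probe whose gene symbol in the scanner files begins with Kcn, Cacna, Cacnb or Cacng, or names a Trpc, Trpv, Trpm, Ryr or Itpr gene. The rule found 232 probes of 41174, for 138 genes of 28306. One of them, Kcnq1ot1, is a non-coding RNA that only shares its first letters with a channel.

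In arterial smooth muscle, potassium channels set the membrane potential, and the potential decides how often voltage-gated calcium channels open. Calcium that enters through them, or that inositol trisphosphate receptors (Itpr) and ryanodine receptors (Ryr) release from the sarcoplasmic reticulum, drives contraction. TRP channels are cation channels opened by stretch, lipids, heat or receptor signals, and several of them conduct calcium. Cells that proliferate in culture are known to keep only part of the channel set of a contracting artery.

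The label was checked first against the targeted gene and against cell type markers. Atg7 had normalized log2 signals of 7.06 and 6.94 in the Atg7F/F extracts, against 8.23 and 8.20 in the Atg7+/+ extracts, a mean log2 ratio of -1.22 ± 0.07 (SD, n = 2). The genotypes do not overlap, and no source used here says which bases of Atg7 are removed. Of 7 smooth muscle markers 6 passed the filter described below, Myocd being the exception. Tagln and Acta2 were lower in Atg7F/F on all 4 arrays, at -0.23 and -0.17 (33.3% of the 6, against 9.95% of all genes). Smtn was lower in both replicates, at -0.16 and -0.18, but not on every array. Myh11, Cnn1 and Lmod1 had replicates of opposite sign. Endothelial markers passed it too, 11 of 11, and 9 were lower in Atg7F/F on all 4 arrays (81.8%, against 9.95% of all genes), with a median of -0.35 over the 11. Their summed linear signal was 10500 and 12300 in the Atg7F/F extracts and 11800 and 23200 in the Atg7+/+ extracts. Of other cells' markers, 4 of 8 macrophage genes with a probe passed, without Ptprc, Adgre1, Itgam and Aif1. The median of those 4 was -0.02, with -0.23 in replicate 1 and 0.05 in replicate 2. Of adventitial fibroblast genes 7 of 7 passed, with a median of 0.07. Their replicates went opposite ways, with medians of -0.36 in replicate 1 and 0.5 in replicate 2, so 0.07 does not show that the genotypes were alike. Of cardiac and skeletal muscle genes 3 of 10 passed, with a median of -0.24. In a bulk extract, fewer cells of a type and less RNA per cell cannot be told apart. The share of spots well above background lay between 43.3% and 45.5% in every channel, and 0 spots were saturated.

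Most of the channel genes gave little signal. Between 42 and 49 of the 232 probes were well above background in a channel, 18.1% to 21.1%, where 42.5% to 44.7% of all probes were. A gene was tested if a probe was well above background in at least 1 genotype on all 4 arrays, which 34 of 138 genes passed (24.6%), against 43.7% of all genes. Of the probes, 41 of 232 passed (17.7%), against 41.6% of all probes. Of the other 104 genes, 14 were above background in some channels and 90 in none. Of the 34, 30 were well above background in both genotypes on every array. Kcnq1 and Kcnip3 passed through Atg7+/+ alone, with 3 arrays above background in Atg7F/F. Kcnk13 and Cacna1s passed through Atg7F/F alone, with 3 and 2 arrays above background in Atg7+/+. No channel probe was above background in one genotype on all 4 arrays and in the other on none, while 26 probes of the whole array were.

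**Figure D1:**
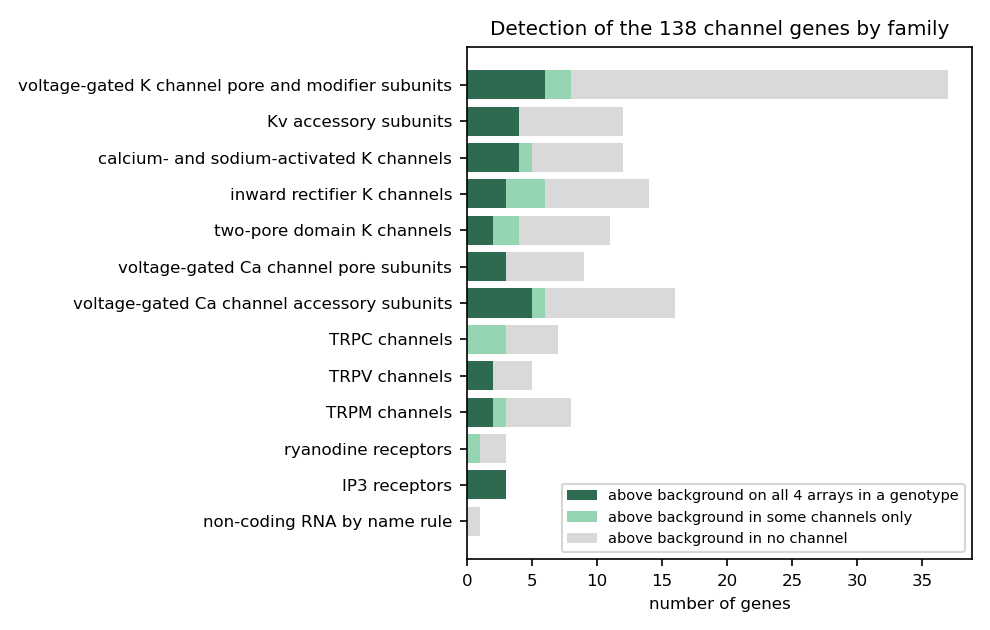
Number of channel genes per family (horizontal axis) that were well above background on all 4 arrays in at least 1 genotype, in some channels only, or in no channel. All 3 Itpr genes were measured, but 0 of 7 TRPC and 0 of 3 ryanodine receptor genes.

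The families differed in how many members were measured. All 3 inositol trisphosphate receptor genes passed, and 0 of 3 ryanodine receptor genes did. Among TRP channels, 2 of 5 Trpv, 2 of 8 Trpm and 0 of 7 Trpc genes passed. Of 37 pore and modifier subunits of voltage-gated potassium channels (Kv) 6 passed, of 12 Kv accessory subunits 4, and of 12 calcium- and sodium-activated potassium channel genes 4. Of 14 inward rectifiers 3 passed, and of 11 tandem-pore potassium channels, which carry background current, 2 did. Of the calcium channels, 3 of 9 pore subunits and 5 of 16 accessory subunits passed.

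Several channels known from contracting arteries were not well above background in any channel. From a list of 39 vascular smooth muscle channels, 38 had a probe here, 16 were measured and 16 were above background nowhere. Among them were Kcnma1, the pore of the large-conductance calcium-activated (BK) channel, and Kcna5, a Kv pore of arterial myocytes. So were Kcna2, Kcnmb4, Kcnj11, Kcnj2, Kcnn3 and Kcnk2 among potassium channels, Cacna1d and Cacna1h among calcium channels, and Trpc6, Trpm8, Ryr2 and Ryr3. Kcnq5, Kcnk3, Cacnb2, Trpc1, Trpc4 and Ryr1 were above background in some channels. Trpc1, a widely expressed cation channel subunit, was so on 2 arrays in Atg7F/F and on 3 in Atg7+/+. Cacna1c was not analysed here. A probe not well above background gives a bound on this array and does not show that the transcript is lacking.

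No channel gene passed the test for a genotype difference. Ratios were tested against 0 with limma over all 12367 genes, where 0% were called at an adjusted p below 0.05, and every channel gene had an adjusted p of 1. The targeted gene Atg7 was not called either, with a limma p of 0.000607 unadjusted and 0.938 adjusted. The lack of a call therefore does not show the lack of a difference. At an unadjusted p below 0.05 there were 2 channel genes of 34, against 2.98% of all genes. Kcnj8 was the 1 gene on the higher side, where 1.34% of all genes were, and Trpv2 the 1 on the lower side, where 1.64% were. The median log2 ratio of the 34 genes was 0.02 and that of all genes 0.00, and the median absolute ratio was 0.10 against 0.07. None was 2-fold apart on average, which 0.323% of all genes were, and 8 had a mean of at least 0.25 in size (23.5%, against 10.6% of all genes). Higher in Atg7F/F on all 4 arrays were 5 channel genes (14.7%, against 10.6% of all genes) and lower on all 4 were 6 (17.6%, against 9.95%). With arrays centred on their median in place of loess, 3 channel genes were higher on all 4 arrays and 1 was lower, against 4.86% and 2.14% of all genes. Over the 30 genes above background in both genotypes, 5 were higher and 5 lower on all 4 arrays, against 10.5% and 9.65% of all such genes. The sign differed between the replicates in 18 of 34 channel genes (52.9%), against 54.5% of all genes. The median gap between replicates was 0.21 log2 units for channel genes and 0.17 for all genes. Both Atg7F/F extracts lay above both Atg7+/+ extracts for Itpr1 and Kcng2 (5.88%, against 11.4% of all genes), and below them for Kcnab1, Kcnj4 and Kcnq1 (8.82%, against 10.1%). Kcnq1 passed the filter through Atg7+/+ alone, the genotype in which it is higher, so its count among the lower genes is no evidence of direction. For a single gene, turning the signs of the 2 replicate ratios in every way allows no exact p under 0.5.

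**Figure D2:**
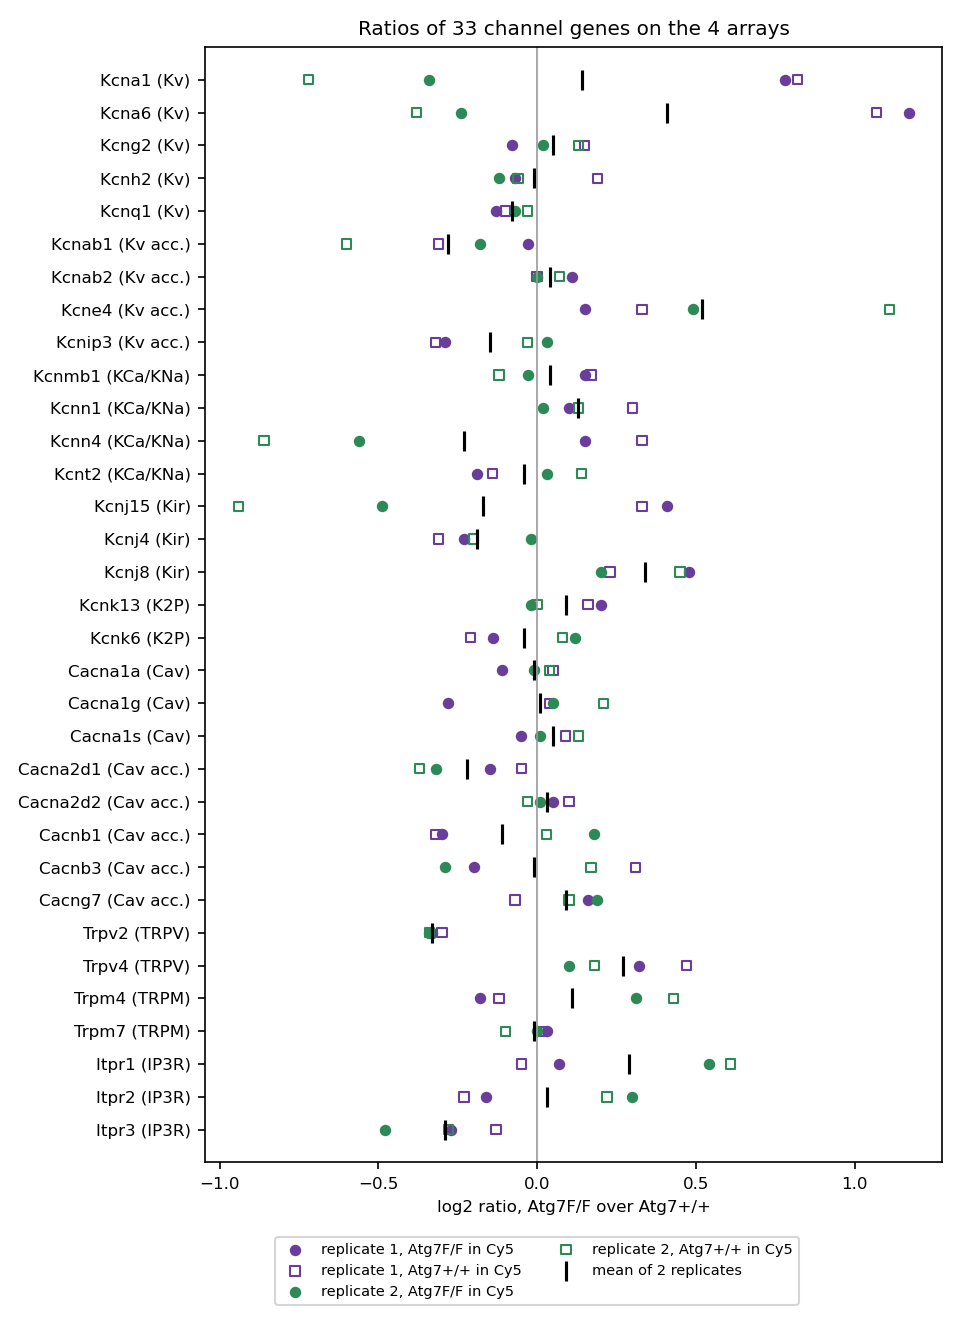
Log2 ratios of Atg7F/F over Atg7+/+ (horizontal axis) of 33 measured channel genes on the 4 arrays, with colour for the replicate, shape for the dye and a bar for the mean. Kcne4 and Kcnj8 lie right of 0 on all 4 arrays, Trpv2 and Itpr3 lie left of it, and Kcna6 and Kcna1 lie on opposite sides in the 2 replicates.

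The probes behind the genes that are described most closely below are 60 bases long. Their middle 30 bases, positions 16 to 45 from the 5′ end, are shown as the scanner files give them, to identify the transcript stretch that each value comes from.
Kcne4: acttaaagacacagttggagactttggata
Kcnj8: ctgagagacaatccggagacagttcattga
Trpv4: tgacctgctgcagccctggctagtgtgggt
Trpv2: aacctgggaagaacagtgcctcagaggaag
Itpr3: ctggggactaatgtgttaattgccttaaat
Kcnab1: taactttccatctattcactgtaaatgtaa
Kcna6: gatcaaaggagaggaggtgttaggatgatc
Kcna1: cattgttgcattgtgaatttggggagtggc
On mm9, the build of the files, the Kcne4 probe lies on chromosome 1 at 78815838 to 78815897 and the Kcnj8 probe on chromosome 6 at 142514004 to 142514063. The Trpv4 probe lies on chromosome 5 at 115072208 to 115072267, the Trpv2 probe on chromosome 11 at 62413620 to 62413679 and the Itpr3 probe on chromosome 17 at 27259102 to 27259161. The Kcnab1 probe lies on chromosome 3 at 65182004 to 65182063. Which exon or other part of its gene each probe matches was not looked up, for want of gene models on mm9.

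Kcnj8, an inward rectifier, had the smallest p of the channel genes. It encodes the pore of the ATP-sensitive potassium channel of vascular smooth muscle, whose opening relaxes arteries. Its raw mean intensities in Cy5 were 322 and 163 in Atg7F/F replicates 1 and 2, against 235 and 123 in the Atg7+/+ replicates, and in Cy3 201 and 116 in Atg7F/F against 165 and 92.6 in Atg7+/+. Local background was between 44 and 84 on these spots. After normalization the log2 signals were 8.04 and 7.28 in Atg7F/F and 7.68 and 6.95 in Atg7+/+. The replicates differed more from each other than the genotypes did, and the extracts overlap, but within each pair Atg7F/F was higher. The mean log2 ratio was 0.34 ± 0.02 (1.27-fold, unadjusted p 0.0249), and the arrays with Atg7F/F in Cy5 and in Cy3, in that order here and below, gave 0.48 and 0.23 for pair 1 (the replicate 1 extracts) and 0.20 and 0.45 for pair 2. The scanner software's processed signals gave 0.73, more than 1.5 times as much, and normexp without an offset gave 0.52. Abcc9, the sulfonylurea receptor that pairs with this pore and is named for that reason, had -0.07 ± 0.13.

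The other measured inward rectifiers had no common direction. Kcnj4, an inward rectifier of the classical strongly rectifying kind, had log2 signals of 6.66 and 6.69 in Atg7F/F against 6.93 and 6.79 in Atg7+/+. The extracts do not overlap, and the ratio was -0.19 ± 0.12 (unadjusted p 0.139), but -0.65 with the software's processed signals and -0.43 with normexp without an offset. The arrays gave -0.23 and -0.31 for pair 1 and -0.02 and -0.20 for pair 2. Kcnj15, an inward rectifier known mainly from epithelia, had 8.43 and 7.13 in Atg7F/F against 8.06 and 7.85 in Atg7+/+, with ratios of 0.37 in replicate 1 and -0.72 in replicate 2.

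Kcne4, an accessory subunit of Kv channels, had the largest mean ratio of the channel genes of one sign on all 4 arrays. It encodes a single-pass subunit that binds Kv pores and is known to modulate KCNQ channels in arteries. Its raw mean intensities in Cy5 were 131 and 225 in Atg7F/F replicates 1 and 2 and 113 and 118 in the Atg7+/+ replicates, and in Cy3 91.8 and 178 in Atg7F/F against 78.6 and 91.2 in Atg7+/+. The local background of these spots was between 45 and 85, so Kcne4 was a dim probe. The normalized log2 signals were 6.91 and 7.81 in Atg7F/F and 6.67 and 7.01 in Atg7+/+, with replicate 2 of Atg7F/F above the rest. The ratio was 0.24 in replicate 1 and 0.80 in replicate 2, a mean of 0.52 ± 0.39 (1.43-fold, unadjusted p 0.0572). All arrays were positive, at 0.15 and 0.33 for pair 1 and 0.49 and 1.11 for pair 2, and the software's processed signals gave 1.32.

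Kcnab1, a cytosolic beta subunit of Kv channels, was on the other side. It had log2 signals of 7.72 and 7.67 in Atg7F/F against 7.89 and 8.06 in Atg7+/+, which do not overlap. The ratio was -0.28 ± 0.16 with an unadjusted p of 0.0699. The arrays gave -0.03 and -0.31 for pair 1 and -0.18 and -0.60 for pair 2, and the array with Atg7+/+ in Cy5 gave the lower ratio in both replicates. Its relative Kcnab2 had 0.04 ± 0.01, and Kcnip3, a calcium-binding protein that binds Kv pores and also acts in the nucleus, had -0.15 ± 0.22. Kcnip3 was 0.31 log2 units lower in replicate 1 and at 0.00 in replicate 2. It passed the filter through Atg7+/+ alone, and its mean was -0.78 with the processed signals and -0.44 without an offset. The processed signals gave Kcnab1 -0.45.

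For Kcna1 and Kcna6, Kv pores of the Shaker family, the ratio depended on the replicate. Kcna6 had log2 signals of 7.93 and 7.48 in Atg7F/F and 6.81 and 7.79 in Atg7+/+. Kcna1 had 7.46 and 7.21 in Atg7F/F and 6.66 and 7.74 in Atg7+/+. In both genes replicate 1 of Atg7+/+ was the lowest of the 4 extracts, and the genotypes overlap. The log2 ratios were 1.12 and -0.31 for Kcna6 and 0.80 and -0.53 for Kcna1 in replicates 1 and 2, and both dye orientations had the same sign. Their means were 0.41 ± 1.01 and 0.14 ± 0.94. Kcna1, Kcna6 and Kcnj15 are the channel genes whose replicates lay at least 1 log2 unit apart, 8.82% against 2.98% of all genes, and they were singled out after their values were seen.

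Kcna1 and Kcna6 are neighbours on chromosome 6, where their probes lie 66.7 kilobases apart, at 126591727 to 126591786 and 126658424 to 126658483. The Kcna1 and Kcna6 probes share no run longer than 7 bases, and at the best ungapped shift 22 bases of 60 match. Both genes are known from neurons and myelinated nerve. Among the markers of neural and Schwann cells, Sox10, a Schwann cell factor, had 8.19 and 7.62 in Atg7F/F against 6.74 and 8.10 in Atg7+/+, so its lowest extract was the same one as for Kcna1 and Kcna6. S100b, found in Schwann cells and other cells, had 11.89 and 13.08 in Atg7F/F against 12.63 and 12.19 in Atg7+/+, which is another order, with its lowest value in replicate 1 of Atg7F/F. Of the 12 markers 5 passed the filter, and Snap25, Rbfox3, Stmn2, Elavl4, Nefl and Gap43 were among those that did not. The summed linear signal of the 5 was 5960 and 11000 in Atg7F/F and 8070 and 5690 in Atg7+/+. The part of such cells in the values of Kcna1 and Kcna6 was not tested.

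Other Kv pore and modifier genes had small ratios. Kcnq1, a pore that Kcne subunits bind, had 6.49 and 6.54 in Atg7F/F and 6.61 and 6.58 in Atg7+/+, which do not overlap but lie within 0.12 log2 units. Its ratio was -0.08 ± 0.05, with arrays at -0.13 and -0.10 for pair 1 and -0.07 and -0.03 for pair 2. Its probe was dim, and the software's processed signals gave -0.58. Kcnh2, the pore of the rapid delayed rectifier of the heart, had -0.01 ± 0.11, and Kcng2, a silent modifier subunit, 0.05 ± 0.03, with 0.32 by the processed signals.

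Calcium-activated potassium channels differed in no common direction. Kcnn4, the intermediate-conductance channel known from proliferating smooth muscle cells, had 7.90 and 7.08 in Atg7F/F against 7.66 and 7.79 in Atg7+/+. Its lowest extract was replicate 2 of Atg7F/F, and the ratios were 0.24 and -0.71. Its arrays gave 0.15 and 0.33 for pair 1 and -0.56 and -0.86 for pair 2. Kcnmb1, the beta subunit that raises the calcium sensitivity of BK channels in smooth muscle, had 6.75 and 6.65 in Atg7F/F and 6.59 and 6.73 in Atg7+/+. The Kcnmb1 groups overlap, and the mean ratio was 0.04 ± 0.17, with arrays at 0.15 and 0.17 for pair 1 and -0.03 and -0.12 for pair 2. Its probe was dim, with raw Cy3 intensities of 67.7 to 81.4 over a local background of 45 to 47. A ratio near 0 on it does not show likeness of the genotypes. Kcnn1, a small-conductance channel, was at 0.13 ± 0.09, and at 0.30 without an offset, with 6.90 and 6.98 in Atg7F/F against 6.71 and 6.90 in Atg7+/+. Its arrays gave 0.10 and 0.30 for pair 1 and 0.02 and 0.13 for pair 2. Kcnt2, a sodium-activated channel, had -0.04 ± 0.18. The tandem-pore channels Kcnk6 and Kcnk13 had -0.04 ± 0.19 and 0.09 ± 0.13, and Kcnk6 had 6.97 and 7.19 in Atg7F/F and 7.14 and 7.10 in Atg7+/+. Its arrays gave -0.14 and -0.21 for pair 1 and 0.12 and 0.08 for pair 2. Kcnk13, which passed the filter through Atg7F/F alone, had 0.51 by the processed signals.

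**Figure D3:**
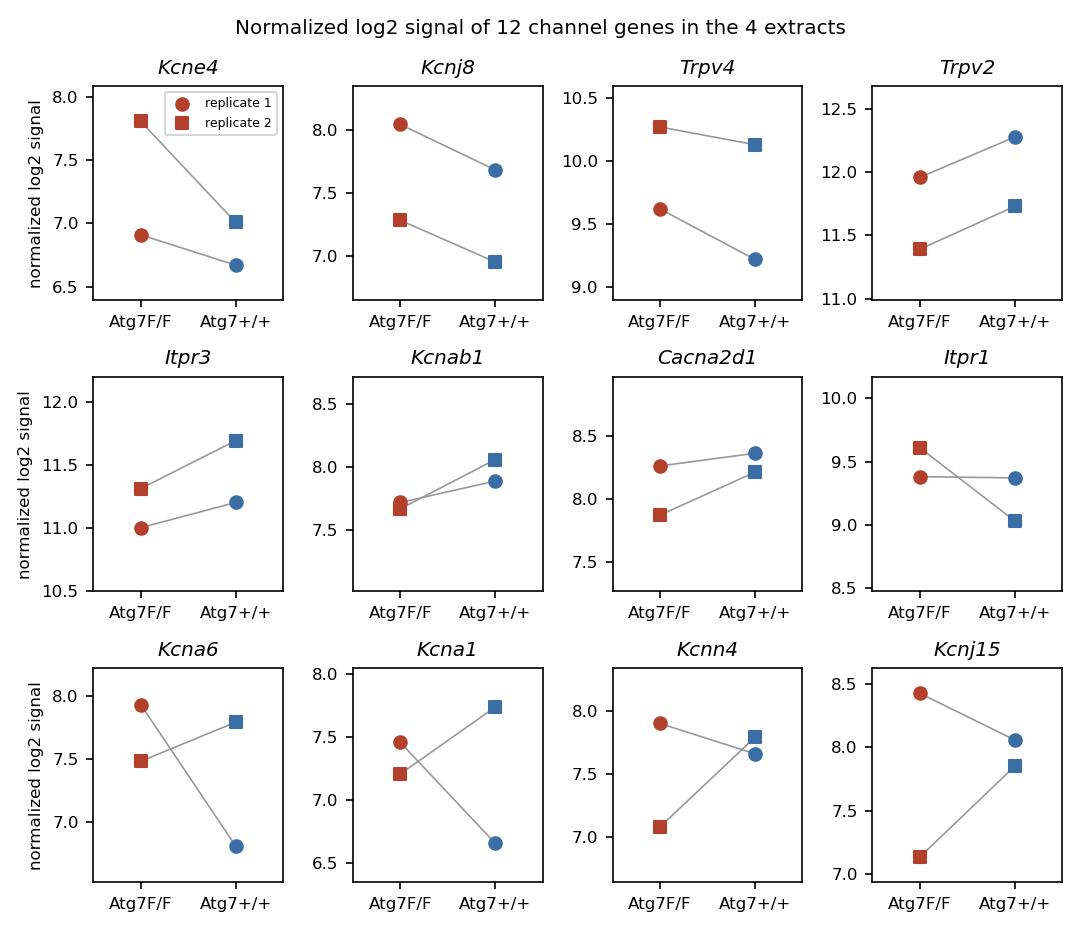
Normalized log2 signal (vertical axis, spanning the same range in each panel) of 12 channel genes in the 4 extracts, with a line joining the extracts hybridised together. The lines of Kcne4, Kcnj8 and Trpv4 go down from Atg7F/F to Atg7+/+ in both pairs, those of Trpv2 and Itpr3 go up, and those of Kcna6, Kcna1, Kcnn4 and Kcnj15 go down in the replicate 1 pair and up in the replicate 2 pair.

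Pore subunits of voltage-gated calcium channels had ratios near 0, but on dim probes. The normalized log2 signals of the 3 measured genes lay between 6.43 and 6.96 in the extracts. Raw Cy3 intensities of the Cacna1g probe were 85.9 to 94.2, over a local background of 45.5 to 48. At such signals a ratio near 0 does not show that the genotypes were alike. The same holds for other dim probes with ratios near 0, among them those of Kcnt2, Kcnab2, Kcnh2, Kcng2, Cacna2d2 and Trpm7. Cacna1g, a T-type pore that opens at low voltage, had 6.77 and 6.96 in Atg7F/F and 6.89 and 6.83 in Atg7+/+, a ratio of 0.01 ± 0.18. Its arrays gave -0.28 and 0.04 for pair 1 and 0.05 and 0.21 for pair 2, and a further probe gave 0.06. Cacna1a, the pore of P/Q-type channels, had -0.01 ± 0.03, and Cacna1s, the L-type pore of skeletal muscle, 0.05 ± 0.04. Cacna1s passed the filter through Atg7F/F alone and had 0.26 by the processed signals.

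The accessory subunits included Cacna2d1, which raises the number of calcium channels at the surface. It had 8.26 and 7.87 in Atg7F/F against 8.36 and 8.21 in Atg7+/+. The groups overlap, but Atg7F/F was lower in both pairs, at -0.22 ± 0.17 (unadjusted p 0.128). The arrays gave -0.15 and -0.05 for pair 1 and -0.32 and -0.37 for pair 2. A further Cacna2d1 probe gave -0.13. Cacnb3, a cytosolic beta subunit, had 10.74 and 10.34 in Atg7F/F and 10.69 and 10.41 in Atg7+/+, a mean of -0.01 ± 0.08. The arrays with Atg7F/F in Cy5 and in Cy3 gave -0.20 and 0.31 for pair 1 and -0.29 and 0.17 for pair 2, so the sign followed the dye and not the genotype. Cacnb1, another beta subunit, had -0.11 ± 0.30, Cacna2d2, a relative of Cacna2d1, 0.03 ± 0.06 and Cacng7, a gamma subunit, 0.09 ± 0.07.

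The pair of measured Trpv genes lay on opposite sides. Trpv2, a cation channel linked to growth factors and stretch, had raw mean intensities in Cy5 of 5250 and 2760 in Atg7F/F replicates 1 and 2 against 5830 and 3920 in the Atg7+/+ replicates. In Cy3 they were 3290 and 2230 in Atg7F/F against 4450 and 2880 in Atg7+/+. The normalized log2 signals were 11.96 and 11.39 in Atg7F/F and 12.28 and 11.73 in Atg7+/+, so replicate 1 was higher in both genotypes and the groups overlap. The ratio was -0.33 ± 0.02 (1.25-fold lower in Atg7F/F, unadjusted p 0.0277), with arrays at -0.33 and -0.30 for pair 1 and -0.34 in both orientations for pair 2. The median of the endothelial markers, -0.35, had the same sign, and their part in this ratio was not tested.

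Trpv4, a calcium-permeable channel opened by cell swelling and lipid mediators and known from both smooth muscle and endothelium, was on the higher side. It had 9.62 and 10.27 in Atg7F/F against 9.22 and 10.13 in Atg7+/+. The extracts overlap, since replicate 2 was higher in both genotypes, and the ratios were 0.40 and 0.14, a mean of 0.27 ± 0.18 with an unadjusted p of 0.0887. The arrays gave 0.32 and 0.47 for pair 1 and 0.10 and 0.18 for pair 2. Of the endothelial markers, 9 of 11 were lower on all 4 arrays, while Cldn5 had 0.05 and Emcn -0.59 with replicates of opposite sign, and their part in the Trpv4 ratio was not tested. Of the Trpm genes, Trpm4, a monovalent cation channel opened by calcium, had 8.86 and 9.47 in Atg7F/F against 9.01 and 9.09 in Atg7+/+, with ratios of -0.15 and 0.37 in replicates 1 and 2. Its arrays gave -0.18 and -0.12 for pair 1 and 0.31 and 0.43 for pair 2. Trpm7, a magnesium-permeable channel fused to a kinase, had 7.05 and 7.01 in Atg7F/F against 7.02 and 7.05 in Atg7+/+ and a ratio of -0.01 ± 0.05. Its arrays gave 0.03 and 0.02 for pair 1 and 0.00 and -0.10 for pair 2.

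The inositol trisphosphate receptors, the calcium release channels of the sarcoplasmic reticulum, had 3 different patterns. Itpr3 had 11.00 and 11.31 in Atg7F/F against 11.20 and 11.69 in Atg7+/+. The arrays gave -0.27 and -0.13 for pair 1 and -0.48 and -0.28 for pair 2, a mean of -0.29 ± 0.13 with an unadjusted p of 0.0583, although the groups overlap. The endothelial markers had medians of -0.19 in replicate 1 and -0.48 in replicate 2, and their part in the Itpr3 ratio was not tested. Itpr1 had 9.38 and 9.61 in Atg7F/F and 9.37 and 9.03 in Atg7+/+, with ratios of 0.01 in replicate 1 and 0.58 in replicate 2. The extracts do not overlap, but those of replicate 1 differed by 0.01. The arrays gave 0.07 and -0.05 for pair 1 and 0.54 and 0.61 for pair 2, a mean of 0.29 ± 0.40, and a further probe gave 0.15. Itpr2 had 10.15 and 10.76 in Atg7F/F and 10.34 and 10.50 in Atg7+/+, a ratio of 0.03 ± 0.32, with -0.11 by a further probe. Its arrays gave -0.16 and -0.23 for pair 1 and 0.30 and 0.22 for pair 2.

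**Figure D4:**
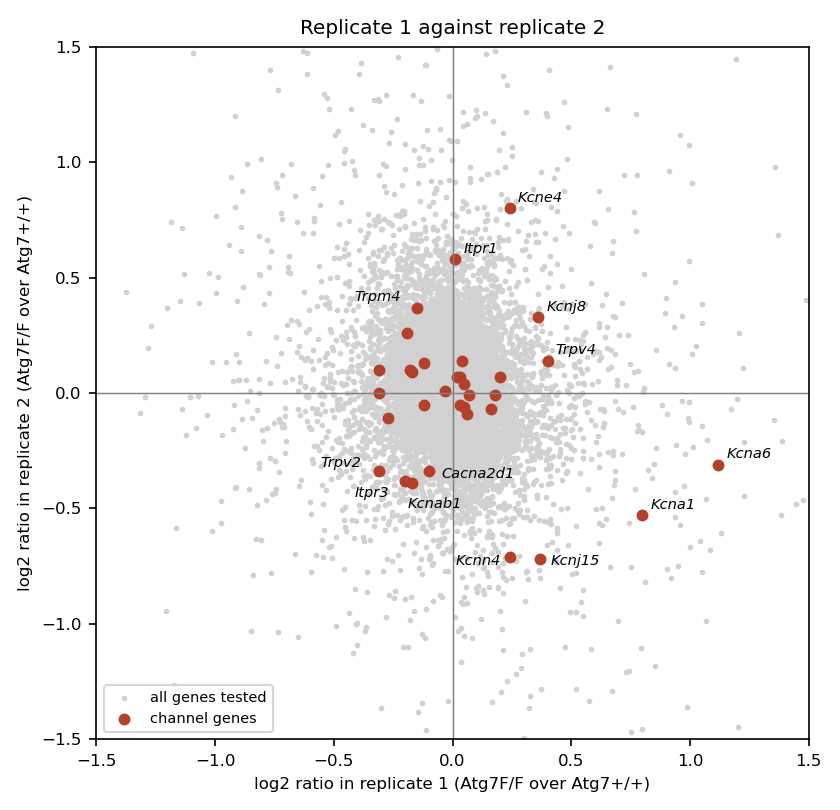
Log2 ratio of Atg7F/F over Atg7+/+ in replicate 1 (horizontal axis) against replicate 2 (vertical axis), for 33 channel genes and for all genes tested, of which 85 lie outside the axes. Kcnj8 and Kcne4 are positive in both replicates, Trpv2, Itpr3 and Kcnab1 negative in both, and Kcna6, Kcna1, Kcnn4 and Kcnj15 positive in replicate 1 and negative in replicate 2.

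Several probes were measured for 7 channel genes, and the widest gap between the probes of a gene was 0.14 log2 units, for Itpr1 and Itpr2. That gap is wider than the median absolute ratio of the channel genes, 0.10, and the Itpr2 probes had opposite signs. Thus 27 of the 34 genes rest on 1 measured probe. Further probes of Kcnj8, Kcnab1 and Kcnj4 were well above background in no channel, with ratios of 0.07, -0.04 and -0.03, and give no further measurement.

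Partners of these channels that the name rule leaves out gave no call either. Of 66 listed symbols, a few of them older names of others, 61 had a probe under the name and 38 were tested, of which limma called 0, with 2 at an unadjusted p below 0.05. Higher on all 4 arrays was 1 gene (2.63%) and lower on all 4 were 4 (10.5%), against 10.6% and 9.95% of all genes, and the median was -0.02. Ahnak, a large protein that binds calcium channel beta subunits, had -0.42 ± 0.25, and Jph2, which ties the plasma membrane to the sarcoplasmic reticulum, -0.29 ± 0.04. The other listed genes with the largest means were Pkd2, a calcium-permeable TRP channel relative, at 0.39 ± 0.67, the scaffold Akap5 at -0.32 ± 0.24, the kinase Sgk1 at -0.20 ± 0.92 and the calcium-activated chloride channel Ano1 at -0.17 ± 0.02. The Ano1 probe was dim, with log2 signals of 6.42 and 6.39 in Atg7F/F against 6.58 in both Atg7+/+ extracts.

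**Figure D5:**
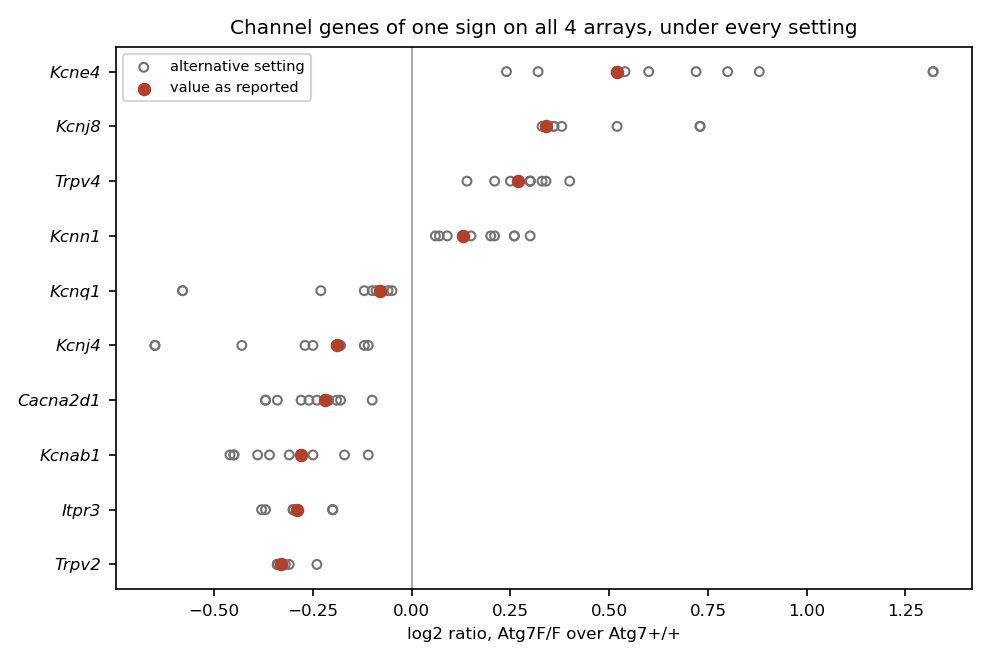
Log2 ratio of Atg7F/F over Atg7+/+ (horizontal axis) of 10 channel genes with one sign on all 4 arrays, as reported and under each alternative setting. The genes were chosen for their sign, so settings that leave out a replicate or a dye orientation cannot move them across 0, and the points spread most for Kcne4, Kcnj4 and Kcnq1.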

How the data were processed

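Dual-colour Agilent arrays measured RNA of 4 extracts on 4 arrays. Per the file headers, the authors' scanner files hold mean and local background intensity per channel, made with Agilent Feature Extraction 10.1.1.1, and processed intensities; their deposited log10 ratio, Cy5 to Cy3, was not used. The authors' deposited log2 table equals the ratio of the processed signals on 100% of values within 0.001 with Atg7F/F as the numerator throughout. Dyes and genotypes came from the labels.

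Intensities were corrected by normexp with an offset of 50 and loess-normalized within arrays (limma 3.58.1, R 4.3.3), with control spots at weight 0. Dye-swapped arrays were averaged, giving n = 2. Probes with a non-uniformity outlier (36) were left out, 17109 probes passed the background filter, and the brightest stood for its gene. Log2 signals per extract are loess- and Aquantile-normalized means over both dyes. limma's lmFit and eBayes tested 12367 genes (two-sided, 3.18 degrees of freedom) with Benjamini-Hochberg adjustment. The replicate block is part of each ratio, since the pair shared an array; deviations of same-numbered extracts correlated at 0.18. The headers give all 4 arrays 1 scan time. The fit was tested on simulated ratios. Full recovery was required only at a low spread set by hand, so this checks the code and not the power of the test.

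The channel genes, the lists and the tests were chosen with earlier results of these data known. The rule named every channel gene past the filter (some genes of the lists are not reported here), with array and extract values for the 10 largest ratios of one sign on all 4 arrays, the 5 smallest p, the vascular list and any gene whose probes lay 1 log2 unit apart (none), and the 6 partners with the largest means. Alternatives are in the closing section.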

Additional observations from a re-analysis of the deposited data

How the results depend on the processing

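limma called 0 channel genes in all 12 settings with a test. In the reported one, 2 of 34 were at an unadjusted p below 0.05 (5.88%, against 2.98% of all genes). That number was 4 of 34 with the processed signals or the deposited table, and 4 of 138 with no filter. It was 6 of 34 with the pair as a random block and 0 with extracts unpaired. The shares of all genes at that threshold are not given for these settings, so the counts show nothing particular to channel genes. Of all genes on the array, 1 was called without the replicate block, with extracts unpaired, and 9 with the pair as a random block, where the smallest adjusted p of a channel gene was 0.373. The number of channel genes of one sign, 11 as reported, was 4 with median centring in place of loess (3 higher and 1 lower, against 4.86% and 2.14% of all genes). It was 24 of 138 genes without the filter on dim probes (10 higher and 14 lower, against 8.19% and 6.93%). On fewer arrays, where one sign is easier to keep, it was 25 to 30 with a replicate left out, where 29.3% to 38.1% of all genes were higher and 29.9% to 35% lower. It was 18 with Atg7F/F in Cy5 alone (30.7% and 24.4% of all genes) and 17 with Atg7+/+ in Cy5 alone (23.8% and 27.5%). The median ratio, 0.02 as reported, was 0.01 and 0.03 with a replicate left out, 0.04 with the processed signals, with the deposited table and with median centring, and -0.01 on the arrays with Atg7F/F in Cy5. With the flag for a positive and significant signal, a mean of 99 channel probes passed per channel, against 45.5 well above background. Over all these settings the ratio lay between 0.24 and 1.32 for Kcne4, between -0.65 and -0.11 for Kcnj4, between -0.58 and -0.05 for Kcnq1 and between -0.34 and -0.24 for Trpv2. The ratio of a single gene counted as moved if it shifted by more than its SD between replicates. The number at an unadjusted p below 0.05 counted as moved if it changed by over 1.5 times. By these rules 63 values under an alternative moved and 454 did not. A ratio with a wide SD could change much without counting as moved. Kcnn4, with an SD of 0.67, went from -0.23 to -0.69 with the processed signals and is among the 454. The cause of these shifts was not tested. Signal over background limits the 104 genes that could not be tested, and the 2 replicates limit every p.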

Other observations

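The 5 measured channel genes on chromosome 6, which also carries Atg7, had mean log2 ratios of 0.29 (Itpr1), 0.14 (Kcna1), 0.41 (Kcna6), 0.34 (Kcnj8) and 0.03 (Itpr2). Their probes lay 6.23, 11.9, 11.9, 27.8 and 31.3 megabases from the Atg7 probe on mm9. Over the 606 tested genes of chromosome 6 the median absolute log2 ratio was 0.09, against 0.07 over all genes tested, which gives no direction. Whether position on the chromosome bears on these ratios was not tested.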
